A study of Mus musculus with 16 samples.

Results

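Lysophosphatidic acid (LPA) and sphingosine 1-phosphate (S1P) receptors are cell-surface G protein-coupled receptors for bioactive lipids. The genes described here are Lpar1, Lpar3, Lpar4 and Lpar6 of the LPA class and S1pr1, S1pr2, S1pr3 and S1pr5 of the S1P class. They were taken by gene symbol, and all 8 symbols were found, each with 1 gene ID, among 53379 gene IDs. Their levels were measured in RNA from the pulldown of tagged ribosomes (IP) and in total RNA (IN) of dorsal root ganglia, which hold the cell bodies of sensory neurons with their satellite glia, Schwann cells, vessels and connective tissue.

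The 16 libraries formed 4 groups of 4: female IP, male IP, female IN and male IN. All mice were naive, 8 to 12 weeks old, and carried the same alleles (Nav1.8Cre and Rosa26fstrap on a C57BL/6J background), so no group lacked Cre or the tagged ribosome. The Scn10a promoter drove Cre. Scn10a encodes Nav1.8, a sodium channel of nociceptors, and Cre switched on a fusion of EGFP and ribosomal protein L10a that anti-GFP antibodies bring down, so the tag marks neurons with a history of Nav1.8 expression. Each library came from a pool of ganglia from 3 mice, and 1 pool gave 1 IP and 1 IN library. Pools are named F1 to F4 (female) and M1 to M4 (male).

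LPA is made outside cells mainly by autotaxin, the product of Enpp2, and S1P is made inside cells by sphingosine kinases and exported. Most of these receptors couple to several G protein classes, lowering cyclic AMP or raising calcium through phospholipase C. In peripheral nerve, LPA receptor signalling is known for effects on Schwann cells and for sensitising pain pathways, and S1P receptor signalling is known for exciting sensory neurons and for controlling vessels and lymphocyte traffic.

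Values are TPM, a unit corrected for gene length and library total, divided by a factor for each library that brings the median gene level between libraries. These scaled TPM are per transcript length, so levels of different genes can be set side by side. A log2 change is that of the scaled TPM with 1 added, IP minus IN, and is thus set against the median gene. For deposited TPM, also with 1 added, the median log2 change over the tested genes was 1.84, IP being higher. That value is what the median gene means for deposited TPM below. It is not the shift between the scale factors (1.65 to 2.69 for IP and 0.375 to 0.532 for IN), because the 1 added weighs more on low values. The files keep no read counts, so sequencing depth is unknown and counting intervals were not computed. The share of TPM in nuclear protein-coding genes was 44.9% to 79.5% in IP and 9.58% to 13.3% in IN, with the lowest IP share in pool F2. Scn10a was at 282 to 444 scaled TPM in IP and 108 to 143 in IN, higher in IP in 8 of 8 pools. Nothing in the labels ties a library to a processing date, so no such batch could be examined.

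Lpar3 made up most of the LPA receptor transcripts in IP, and Lpar1 made up most of them in IN. In IP, Lpar3 held 71.0% ± 2.88 of the summed TPM of the 6 LPA receptor genes and Lpar1 5.5% ± 3.11, whereas in IN Lpar3 held 32.7% ± 1.66 and Lpar1 53.1% ± 2.66 (SD, n = 8 libraries in each fraction). The ratio of Lpar3 to Lpar1 within a library was 5.13 to 20.3 in IP and 0.513 to 0.691 in IN. These shares and ratios are taken within a library, so no scaling between libraries enters them. The largest share of the S1P class was that of S1pr3 in both fractions, at 83.8% ± 3.01 in IP and 80.4% ± 3.45 in IN of the summed TPM of the 5 S1P receptor genes. Of the 8 genes, 5 had a mean of at least 1 deposited TPM in IP or IN and entered the test across all genes. Of those 5, 1 rose and 3 fell in IP (limma, pool as a block, adjusted p under 0.05), while 79.4% of all 16099 tested genes were called, 40.5% higher and 38.9% lower. The fall of S1pr1 and S1pr3 depends on the scaling, as given with each gene. With so many genes called, the count of receptors called is not itself a result about them. Separate ranges of IP and IN, or of the sexes, were not counted over all genes, so they are not read as particular to these receptors.

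**Figure D1:**
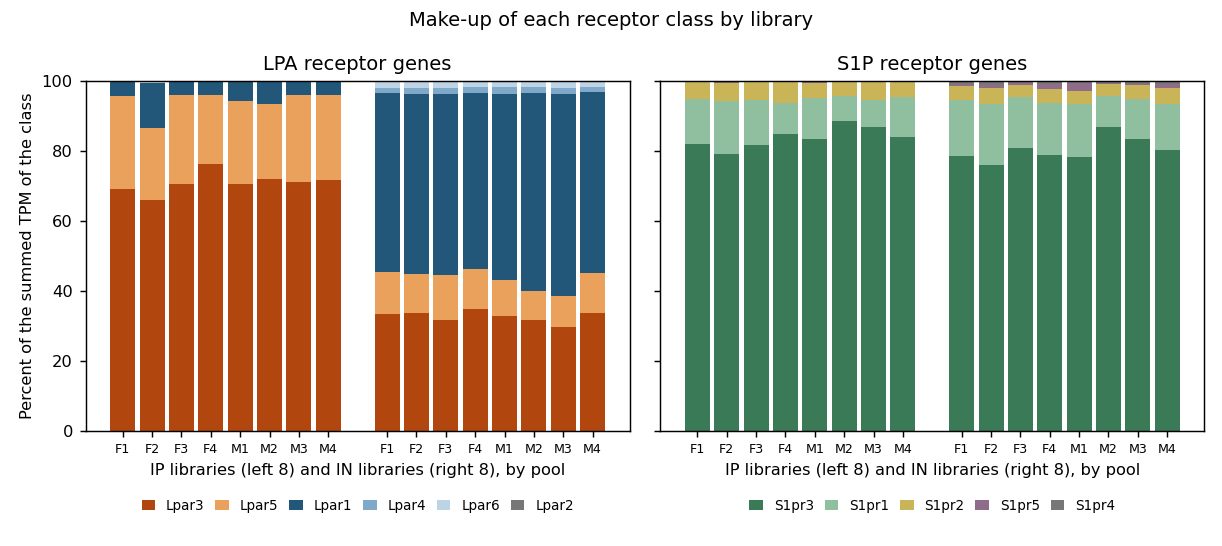
Each bar is 1 library and shows how the summed TPM of the LPA receptor genes (left panel) or the S1P receptor genes (right panel) was divided, in percent, with the IP libraries left of the IN libraries. Lpar3 takes 66.0% to 76.2% of the LPA class in IP and 29.6% to 34.9% in IN, while S1pr3 takes 79.1% to 88.5% of the S1P class in IP and 75.9% to 86.9% in IN.

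Lpar3 (ENSMUSG00000036832.5, chromosome 3, 146220963 to 146286186, plus strand, GRCm38) has 1 annotated transcript of 3 exons, 2 of them coding, for a protein of 354 residues. It belongs to the LPA receptors of the Edg family. Its scaled TPM were 71.5, 50, 75.9 and 67.2 in female IP (F1 to F4) and 67, 63.8, 70.6 and 68 in male IP (M1 to M4). In IN they were 18, 19.2, 19 and 20.1 in F1 to F4 and 17.6, 17.8, 16.8 and 18.3 in M1 to M4. Every IP library was above every IN library, and the lowest IP value was that of F2. The mean was 66.7 ± 7.67 in IP and 18.4 ± 1.03 in IN (SD, n = 8), a 3.64-fold difference (log2 1.80 ± 0.07 SE, limma adjusted p = 4.4e-08), higher in IP in 8 of 8 pools. Without F2 the log2 change was 1.87, and with deposited TPM it was 3.99, or 2.15 above the median gene. Against Scn10a, the gene whose promoter drove Cre, Lpar3 was at a ratio of 0.176 ± 0.00865 in IP and 0.148 ± 0.0126 in IN. Its log2 change lay within the range of the nociceptor markers, whose 10 tested genes all rose with a median of 1.51.

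Lpar1 (ENSMUSG00000038668.14, chromosome 4, 58435255 to 58553898, minus strand) has 8 annotated coding transcripts and encodes a receptor that Schwann cells and many other cells use to sense LPA. Its scaled TPM were 4.25, 9.75, 4.19 and 3.32 in female IP and 5.09, 5.54, 3.8 and 3.7 in male IP. In IN they were 27.6, 29.4, 31.3 and 29 in F1 to F4 and 28.6, 31.7, 32.8 and 28 in M1 to M4. All IP libraries lay below all IN libraries, and F2 stood above the other IP libraries. The mean was 4.95 ± 2.07 in IP and 29.8 ± 1.89 in IN (SD, n = 8), a ratio of 0.166, and the gene fell by 2.43 on the log2 scale (SE 0.13, limma adjusted p = 8.4e-08), in 8 of 8 pools. Without F2 the log2 change was -2.56. With deposited TPM it was -0.35 (limma adjusted p = 0.017), lower in 7 of 8 pools, or -2.19 against the median gene. The scaled change was near the median of several marker lists, which was -2.81 for satellite glia, -2.49 for myelinating Schwann cells, -2.44 for fibroblasts, -2.29 for skeletal muscle and -2.25 for macrophages. The summed level of the 8 satellite glia markers was 285 in the IP library of F2 and 126 to 245 in the other IP libraries, against 941 to 1250 in IN. The summed level of the 8 Schwann cell markers was 1010 in the IP library of F2 and 391 to 811 in the other IP libraries, against 2380 to 3530 in IN. No marker of either list was at 0 across the IP libraries, so transcripts of these markers were present in the pulldown, and their part in the Lpar1 level of IP was not tested. IP and IN of a pool came from the same ganglia. Between pools, other numbers of cells of a type and other amounts of RNA per cell cannot be told apart in bulk RNA. The Lpar1 interval also holds the pseudogene Gm12577 and the miRNA gene Mir3095 on the same strand, and no source used here gives the counting strand.

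**Figure D2:**
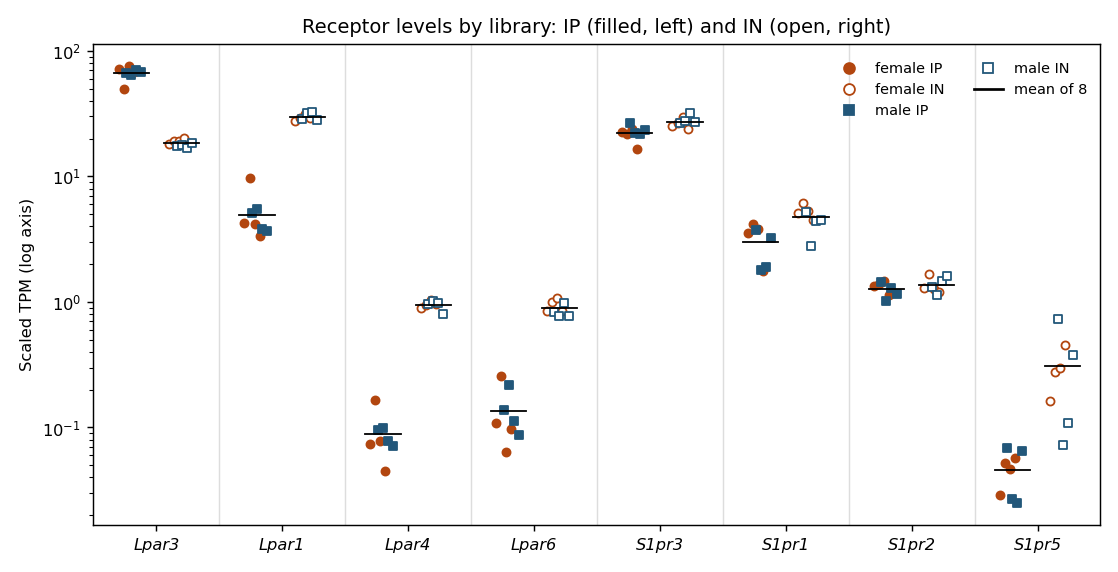
Scaled TPM on a log axis for the 8 receptor genes, with IP libraries (filled) left of IN libraries (open), female pools as circles, male pools as squares, and the mean of 8 as a line. Lpar3 is higher in every IP library, Lpar1, Lpar4, Lpar6 and S1pr5 are lower in every IP library, and S1pr1, S1pr2 and S1pr3 overlap between IP and IN. The share of all genes with separate ranges was not counted, and 79.4% of all tested genes were called.

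Lpar4 and Lpar6 are LPA receptors outside the Edg family, closer in sequence to purine receptors. Lpar4 is known for roles in vessel formation and Lpar6 for hair growth in humans. Both had means under 1 deposited TPM in both fractions and did not enter the fit across genes. Lpar4 (ENSMUSG00000049929.7, chromosome X, 106920625 to 106933900, plus strand) was at a median of 0.0784 scaled TPM in IP (0.0446 to 0.166) and 0.962 in IN (0.795 to 1.03). Lpar6 (ENSMUSG00000033446.7, chromosome 14, 73237895 to 73243294, plus strand) was at a median of 0.11 in IP (0.0643 to 0.255) and 0.841 in IN (0.767 to 1.07). For each gene all 8 IP libraries lay below all 8 IN libraries. On the log2 scale with 1 added, which understates changes of such low genes, Lpar4 fell by 0.84 and Lpar6 fell by 0.73. Each had p = 0.00781 in an exact two-sided sign-flip permutation test over 8 pools, the smallest that test can give (adjusted p = 0.00781 over the 5 receptor genes below the filter). All 5 of those genes reached it, also S1pr4, whose mean deposited TPM was 0.112 in both fractions. How many other genes below the filter would reach it was not counted. The ratio of the means was 0.0934 for Lpar4 and 0.152 for Lpar6. With deposited TPM the direction was the same (log2 -0.26 and -0.13), although the median gene was then higher in IP. Lpar4 was then lower in 8 of 8 pools and Lpar6 in 7 of 8. The highest IP values of both genes were those of F2. Lpar6 is a single-exon gene inside Rb1, which lies on the opposite strand (chromosome 14, 73183673 to 73325822), so without a known strand setting reads of Rb1 pre-RNA cannot be told from reads of Lpar6. Rb1, the retinoblastoma gene, averaged 7.96 ± 1.67 scaled TPM in IP, against 14.9 ± 0.782 in IN (n = 8, SD), and the ratio of Lpar6 to Rb1 was 0.017 ± 0.00761 in IP and 0.0596 ± 0.00764 in IN.

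Promoter windows of genes that rose (Lpar3), fell (Lpar1, Lpar4) and lay closer to the median gene (S1pr3) are shown to set their start regions side by side. They run from 250 bases before to 50 bases after the annotated start, 5′ to 3′ on the gene's strand, from RefSeq on GRCm38.p6, and 7 of the 8 genes have such a window. Capitals mark GGGCGG or its reverse complement CCGCCC, the GC box bound by Sp factors. The windows are chr3:146220711-146221010 (plus) for Lpar3, chr4:58553442-58553741 (minus, the outermost of 3 starts) for Lpar1, chrX:106920375-106920674 (plus) for Lpar4 and chr13:51408368-51408667 (plus) for S1pr3.
Lpar3: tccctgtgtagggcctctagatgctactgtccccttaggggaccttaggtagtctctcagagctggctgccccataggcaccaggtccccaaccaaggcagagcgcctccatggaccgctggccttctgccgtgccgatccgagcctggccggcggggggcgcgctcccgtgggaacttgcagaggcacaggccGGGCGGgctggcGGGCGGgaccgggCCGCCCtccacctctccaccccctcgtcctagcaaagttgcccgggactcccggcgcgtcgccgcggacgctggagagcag
Lpar1: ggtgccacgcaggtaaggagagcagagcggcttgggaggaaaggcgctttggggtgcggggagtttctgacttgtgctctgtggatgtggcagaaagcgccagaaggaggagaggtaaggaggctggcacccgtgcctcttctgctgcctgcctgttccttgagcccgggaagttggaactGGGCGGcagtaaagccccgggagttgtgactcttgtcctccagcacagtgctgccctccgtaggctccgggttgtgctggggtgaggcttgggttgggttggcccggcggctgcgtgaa
Lpar4: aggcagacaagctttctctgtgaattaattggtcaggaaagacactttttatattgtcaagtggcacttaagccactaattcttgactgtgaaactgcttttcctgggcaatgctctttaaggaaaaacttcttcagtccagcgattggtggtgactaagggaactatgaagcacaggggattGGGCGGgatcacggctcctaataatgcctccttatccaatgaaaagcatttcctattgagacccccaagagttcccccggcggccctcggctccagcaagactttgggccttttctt
S1pr3: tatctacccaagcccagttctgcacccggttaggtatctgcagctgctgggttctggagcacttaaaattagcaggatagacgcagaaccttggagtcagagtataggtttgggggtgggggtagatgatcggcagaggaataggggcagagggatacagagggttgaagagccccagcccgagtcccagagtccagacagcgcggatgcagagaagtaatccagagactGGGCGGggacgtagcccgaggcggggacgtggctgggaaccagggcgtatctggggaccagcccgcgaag
The window of Lpar3 holds 25 CG dinucleotides and 3 GC boxes at 70.3% GC. That of Lpar1 holds 14 CG and 1 GC box at its outermost start, while the windows of its other starts hold 37 CG at 71.7% GC and 3 CG at 43.7% GC. That of S1pr3 holds 14 CG and 1 GC box, and that of Lpar4 6 CG and 1 GC box at 46.7% GC. The median over all 32851 windows was 7 CG at 52.7% GC, and 35.7% of windows held GGGCGG on either strand. Of the genes not printed, the window of Lpar6 has 1 CG at 40% GC and 0 GC boxes, that of S1pr2 18 CG and 1 GC box, and that of S1pr5 27 CG and 2 GC boxes. TATAAA on either strand (TTTATA), the TATA box, was in 13.6% of all windows and, of these 4, in that of Lpar4. TGTGGT on either strand (ACCACA), a core bound by Runx factors, was in 16.8% of all windows and in none of these 4. A GC box can overlap neither of the other motifs, which can share a terminal base with each other, and each GC box contains 1 CG. Such matches describe the sequence and show no binding.

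S1pr3 (ENSMUSG00000067586.4, chromosome 13, 51408639 to 51422797, plus strand) was the most abundant S1P receptor gene in both fractions. It encodes a receptor known in sensory neurons for S1P-evoked excitation, pain and itch, from a single coding exon of 2 exons. Its scaled TPM were 22.4, 21.6, 23.7 and 16.6 in female IP and 26.7, 22.3, 21.7 and 23.6 in male IP. In IN they were 25, 26.8, 29.6 and 23.7 in F1 to F4 and 26.8, 27.7, 31.7 and 27.2 in M1 to M4. The ranges of the fractions overlapped, but IP was below IN within each of the 8 pools, in M1 by as little as 26.7 in IP against 26.8 in IN. The mean was 22.3 ± 2.84 in IP and 27.3 ± 2.5 in IN (SD, n = 8), and the gene fell by 0.29 on the log2 scale (SE 0.06, limma adjusted p = 0.0011) relative to the median gene. The sign and call of that change depend on the processing. With deposited TPM and 1 added its log2 change was 1.91, 0.07 above the median gene. The 1 added weighs more on low values, so that gap is not read as a rise against the median gene. Without the filter on low values the call was lost (log2 -0.12, limma adjusted p = 0.10). The fall was larger with quantile normalization (log2 -0.44, limma adjusted p = 8.1e-05) and with protein-coding totals (log2 -0.53, limma adjusted p = 3.9e-05). Against Scn10a its ratio was 0.0596 ± 0.0116 in IP and 0.221 ± 0.0333 in IN, and no IP library reached an IN library. The ratio is free of scaling, but Scn10a itself was higher in IP by a log2 of 1.60. The lower ratio therefore does not show a fall of S1pr3 itself. Set against the median gene, the log2 change of S1pr3 was thus -0.61 (quantile normalization) to 0.07 (deposited TPM) over the scalings. It lay below the median of the nociceptor markers and above the medians of both glial marker lists. The lincRNA Gm32834 overlaps S1pr3 on the opposite strand and was at 0 in all IP libraries.

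S1pr1 (ENSMUSG00000045092.8, chromosome 3, 115710433 to 115715072, minus strand) encodes the receptor through which S1P maintains vessel walls and guides lymphocytes out of lymphoid organs. Its scaled TPM were 3.51, 4.18, 3.82 and 1.77 in female IP and 3.74, 1.78, 1.89 and 3.22 in male IP. In IN they were 5.1, 6.16, 5.29 and 4.52 in F1 to F4 and 5.22, 2.79, 4.43 and 4.48 in M1 to M4. The IP values lay in 2 separate ranges, 1.77 to 1.89 in F4, M2 and M3 and 3.22 to 4.18 in the other 5 pools. Those 3 libraries had protein-coding shares of 57.6%, 61.6% and 67.6%, below all other IP libraries except F2 (44.9%). Means were 2.99 ± 1.01 in IP and 4.75 ± 0.977 in IN (SD, n = 8), and the gene fell by 0.55 on the log2 scale (SE 0.08, limma adjusted p = 0.00012), in 8 of 8 pools, with overlapping ranges. With quantile normalization the call was lost (log2 -0.19, adjusted p = 0.065), and with deposited TPM the change was 1.23, or -0.61 once that of the median gene is taken off. Of the 10 endothelial markers 9 fell, with a median of -1.71, and each of the 9 fell by more than S1pr1. The marker that did not pass, Egfl7, averaged 18.5 scaled TPM in IP and 19.3 in IN and held most of the summed level of the list in IP, which was 19.2 to 28.1 in IP and 56 to 67.6 in IN. Without Egfl7, left out after its values were seen, the other 9 summed to 3.95, 6.42 and 4.34 in the IP libraries of F4, M2 and M3 and to 3.09 to 12.4 over all IP libraries, against 37.7 to 48.2 in IN. No endothelial marker was at 0 in all IP libraries. The part of endothelial RNA in the S1pr1 levels was not tested.

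S1pr2 and S1pr5 complete the S1P class here. S1pr2 (ENSMUSG00000043895.6, chromosome 9, 20962361 to 20976781, minus strand), whose product is known for limiting cell migration, was at a median of 1.31 in IP (1.02 to 1.47) and 1.3 in IN (1.13 to 1.68). The ranges overlapped, with the IN libraries of F2, M3 and M4 above every IP library, and IP was higher in 3 pools and lower in 5. Its log2 change was -0.06 ± 0.05 SE (limma adjusted p = 0.33). It passed the filter through IP alone, with a mean deposited TPM of 2.89 in IP and 0.626 in IN. Its sign turned with quantile normalization (log2 0.38, adjusted p = 0.00047) and without the filter (0.04, adjusted p = 0.58), and it passed as lower with protein-coding totals (-0.28, adjusted p = 0.0068), so these data give it no fixed direction. S1pr5 (ENSMUSG00000045087.8, chromosome 9, 21242912 to 21248443, minus strand), known from oligodendrocytes and natural killer cells, was the lowest of the 8 genes in both fractions. Its median was 0.049 in IP (0.025 to 0.0685) and 0.289 in IN (0.0724 to 0.727). The groups did not overlap, but the lowest IN value, of M2, was close to the highest IP value, of M1. It fell by 0.31 on the log2 scale with 1 added (exact two-sided sign-flip permutation test over 8 pools, p = 0.00781), and with deposited TPM that call was lost (log2 -0.05, exact p = 0.164). The unclassified gene AC163637.1 overlaps S1pr5 on the opposite strand (chromosome 9, 21247713 to 21249606) and was at 0 in all IP libraries.

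**Figure D3:**
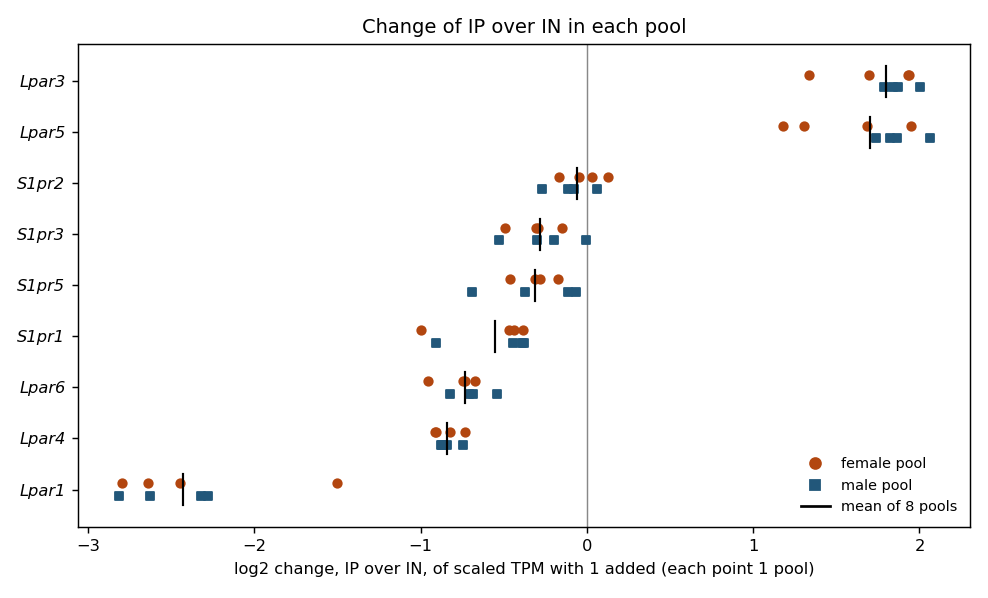
Each point is the log2 change of IP over IN in 1 pool (circles female, squares male) and each bar the mean of 8 pools, for the 8 receptor genes and Lpar5. Lpar3 and Lpar5 lie between 1.18 and 2.06, Lpar1 between -2.82 and -1.50 with F2 nearest to 0, and S1pr2 lies on both sides of 0.

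In IP the order of mean scaled TPM was Lpar3 (66.7), S1pr3 (22.3), Lpar1 (4.95), S1pr1 (2.99), S1pr2 (1.28), Lpar6 (0.135), Lpar4 (0.0885) and S1pr5 (0.0461). The ranges of the neighbours Lpar1 and S1pr1, Lpar6 and Lpar4, and Lpar4 and S1pr5 overlapped in IP. The order in IN was Lpar1 (29.8), S1pr3 (27.3), Lpar3 (18.4), S1pr1 (4.75), S1pr2 (1.37), Lpar4 (0.948), Lpar6 (0.886) and S1pr5 (0.311). There the ranges of Lpar1 and S1pr3 and of Lpar4 and Lpar6 overlapped, although Lpar1 was above S1pr3 in 8 of 8 libraries. The genes whose levels over the 16 libraries were most like those of Lpar3 were Slc39a6, Fam167a, Trpv2 and Fam89a, with Pearson correlations of 0.997 to 0.998. Of these, Fam167a passed the filter through IP alone (mean deposited TPM 12.2 in IP and 0.966 in IN). For Lpar1 the most alike were Hey2, Nfib, Mpzl1 and Tmem163, at 0.996 to 0.997. All 16 points share the division into IP and IN, and 1338 genes reached 0.95 with Lpar3 and 2376 with Lpar1, while no tested gene reached 0.95 with S1pr1 or S1pr3.

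The remaining 3 receptors of the classes are Lpar5, Lpar2 and S1pr4. Lpar5 (ENSMUSG00000067714.13, chromosome 6, 125067920 to 125082472, plus strand), another receptor outside the Edg family, was also higher in IP. It was at 27.6, 15.5, 27.2 and 17.5 in female IP and 22.5, 18.8, 24.6 and 22.8 in male IP. In IN it was at 6.41, 6.27, 7.78 and 6.46 in F1 to F4 and 5.47, 4.61, 5.13 and 6.16 in M1 to M4. The fractions did not overlap, with means of 22.1 ± 4.46 in IP and 6.03 ± 0.971 in IN (SD, n = 8) and a rise of 1.70 ± 0.10 SE on the log2 scale (limma adjusted p = 1.1e-07). Lpar2 was at 0 to 0.0615 in IP and 0.111 to 0.192 in IN, and S1pr4 at 0.0198 to 0.101 in IP and 0.145 to 0.386 in IN. Both were lower in IP in 8 of 8 pools on this scale. In deposited TPM Lpar2 was lower in 6 of 8 pools and S1pr4 in 4 of 8, with an S1pr4 mean of 0.112 in IP and in IN, so the direction of S1pr4 depends on the scaling.

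Females and males were compared within each fraction and by the interaction of sex with fraction. In IP 0 of the 5 tested genes passed an adjusted p of 0.05 in limma, where 0.0497% of all genes did (0.0186% higher and 0.0311% lower in females), and 0 had an unadjusted p under 0.05. In IN 0 of 5 passed, where 0.0808% of all genes did (0.0249% higher and 0.0559% lower in females), and 0 had an unadjusted p under 0.05. The interaction gave 0 of 5, also without adjustment, where 0.0186% of all genes passed. In IP the log2 difference, female minus male, was -0.04 ± 0.13 for Lpar3, 0.12 ± 0.27 for Lpar1, -0.16 ± 0.12 for S1pr3, 0.24 ± 0.24 for S1pr1 and 0.07 ± 0.09 for S1pr2 (SE). In IN it was 0.11 ± 0.05 for Lpar3, -0.04 ± 0.07 for Lpar1, -0.11 ± 0.08 for S1pr3, 0.28 ± 0.15 for S1pr1 and -0.02 ± 0.09 for S1pr2. Female and male ranges overlapped for all 8 genes in both fractions. The interaction, female minus male change, was -0.15 ± 0.14 for Lpar3 and 0.17 ± 0.27 for Lpar1, and without F2 these values were -0.02 and -0.12. A p above the threshold, with 4 pools per sex, does not show equal levels. Lpar5 did not overlap between the sexes in IN, with 6.27 to 7.78 in females and 4.61 to 6.16 in males (log2 0.29 ± 0.09, limma unadjusted p = 0.014, adjusted p = 0.96).

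Genes that make and remove the ligands were counted beside all tested genes, of which 40.5% rose and 38.9% fell, and the counts change with the scaling. With deposited TPM 96.6% of all tested genes were called, and 94% of the calls were higher. These shares were 80.6% and 61.1% with quantile normalization and 77.6% and 35.1% with protein-coding totals. Of 4 tested genes of LPA synthesis 2 rose and 1 fell, and with protein-coding totals 1 rose and 1 fell. Enpp2, the gene of autotaxin, averaged 5.87 ± 1.08 scaled TPM in IP, against 17 ± 2.48 in IN (n = 8, SD), and fell by 1.39 on the log2 scale (limma adjusted p = 4.4e-08), while the acylglycerol kinase gene Agk rose by 0.35 and the lysophospholipase D gene Gdpd1 by 0.13, a call lost with protein-coding totals. Of 9 genes of LPA breakdown and conversion 1 rose and 6 fell, and with deposited TPM 7 rose and 1 fell. The lipid phosphate phosphatase gene Plpp3 was at 4.26 ± 1.62 in IP and 26.8 ± 1.49 in IN and fell by 2.45 (adjusted p = 5.2e-08). Among acyltransferase genes Agpat2 fell by 1.38 and Agpat4 rose by 0.99. Of the 4 tested Plppr genes, relatives of those phosphatases found in neurons, Plppr2 rose by 0.79 and Plppr5 fell by 0.36. With quantile normalization Plppr5 was at 0.02 and 3 of the 4 rose, Plppr3 (0.47) and Plppr4 (0.41) among them. Plppr4 and Plppr5 passed the filter through IP alone, with mean deposited TPM of 3.27 and 1.94 in IP and 0.705 and 0.641 in IN. Of 6 genes of S1P synthesis, export and transport 1 rose and 4 fell, and with deposited TPM 6 rose and 0 fell. The sphingosine kinase gene Sphk2 rose by 0.27, a call lost with protein-coding totals, and the ceramidase genes Acer3 and Asah2 fell by 0.59 and 0.53. The other sphingosine kinase gene, Sphk1, named after its value was seen, fell by 0.47 (limma adjusted p = 0.00015). With quantile normalization that call was lost (log2 -0.14, limma adjusted p = 0.097). Sphk1 passed the filter through IP alone (mean deposited TPM 1.57 in IP and 0.638 in IN). Of the 3 S1P breakdown genes the phosphatase genes Sgpp1 and Sgpp2 fell by 0.30 and 0.23, and the lyase gene Sgpl1 was at -0.17 (adjusted p = 0.18). In deposited TPM with 1 added, Sgpp1 and Sgpp2 were called higher and stood above the median gene by 0.05 and 0.16. The 1 added weighs more on low values, so that gap is not read as a change of direction. Both fell with quantile normalization (log2 -0.45 and -0.47) and with protein-coding totals (log2 -0.55 and -0.46). Of 8 other lysophospholipid receptors listed, 1 was tested. It is Ptafr, the receptor gene for platelet activating factor, named after its value was seen, with a log2 change of -0.10 (limma adjusted p = 0.18). Ptafr too passed the filter through IP alone (mean deposited TPM 2 in IP and 0.452 in IN).

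**Figure D4:**
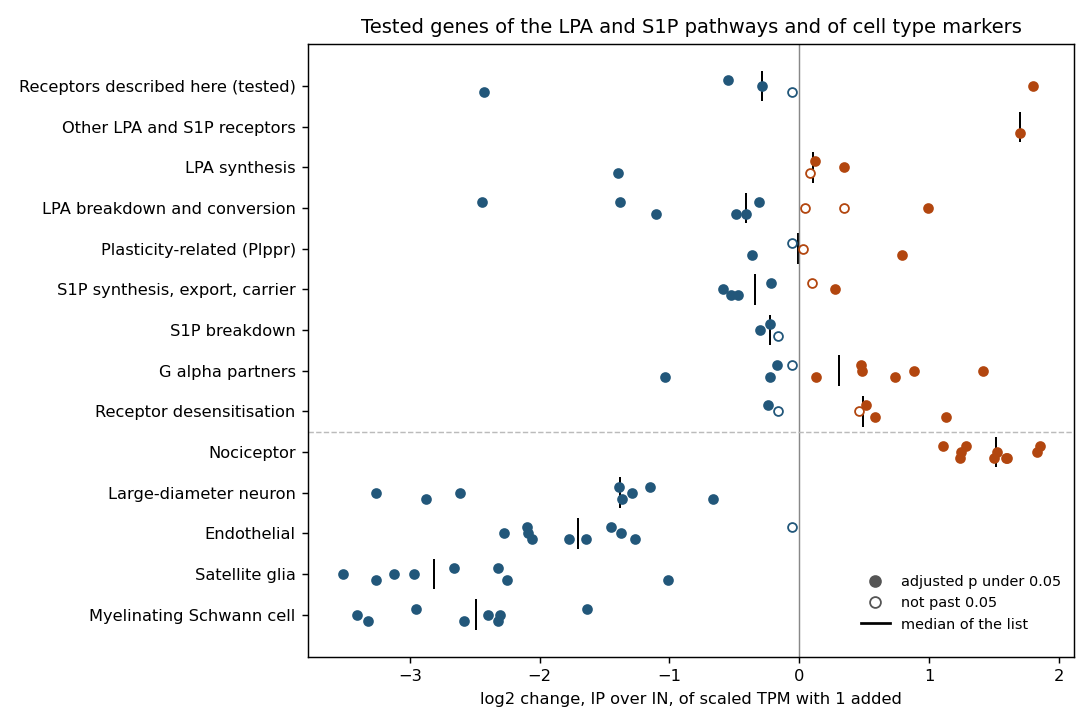
Each point is the log2 change of IP over IN for 1 tested gene, filled where the adjusted p is under 0.05, grouped by role in the LPA and S1P pathways (above the dashed line) and by cell type marker list (below it), with the median of each list as a bar. Lpar3 at 1.80 and Lpar5 at 1.70 lie within the range of the nociceptor markers, and Lpar1 at -2.43 lies within the ranges of the large-diameter neuron, satellite glia and Schwann cell markers plotted.

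Of 10 G alpha subunit genes, which carry the signal into the cell, 6 rose and 3 fell, beside 40.5% and 38.9% of all tested genes. These counts were 5 and 4 with quantile normalization, 5 and 5 with protein-coding totals and 10 and 0 with deposited TPM. Of all tested genes 80.6%, 77.6% and 96.6% were called in the same order, and 61.1%, 35.1% and 94% of those calls were higher. Gna14, a subunit that activates phospholipase C, averaged 62.3 ± 6.03 scaled TPM in IP, against 22.7 ± 1.52 in IN (n = 8, SD), and rose by 1.42 (limma adjusted p = 4.4e-08), and Gnai2, an inhibitor of cyclic AMP synthesis, rose by 0.88. Another inhibitory subunit gene, Gnai1, fell by 1.04, and Gna13, of another G alpha class, fell by 0.22. In deposited TPM with 1 added, Gna13 was called higher and stood 0.12 above the median gene, a gap that also depends on the 1 added. It fell with quantile normalization (log2 -0.35) and with protein-coding totals (log2 -0.46). Of 6 genes that desensitise G protein-coupled receptors 3 rose and 1 fell, which became 3 and 0 with quantile normalization, 3 and 2 with protein-coding totals and 6 and 0 with deposited TPM, with the receptor kinase genes Grk2 and Grk6 higher by 1.13 and 0.58 and Grk5 lower by 0.24, which was -0.02 with quantile normalization.

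Markers of other cell types in the ganglion, and those of skeletal muscle, were lower in IP. All 8 markers of large-diameter neurons fell (median -1.38), as did all 8 fibroblast (-2.44), all 7 tested macrophage (-2.25), all 5 tested mural (-1.28) and all 6 skeletal muscle markers (-2.29). With deposited TPM, where 94% of all calls were higher, the large-diameter list had 4 called higher and 4 lower and the mural list 2 and 2. None of the genes of these 5 lists then stood above the median gene. Macrophage markers summed to 7.56 to 29.5 in IP and 86.9 to 140 in IN, fibroblast markers to 85.8 to 254 in IP and 807 to 1110 in IN, and mural markers to 31 to 41.7 in IP and 67 to 72.3 in IN. Skeletal muscle markers of F2 summed to 179 in IP and 207 in IN. Their sums were 4.9 to 43.5 in the other IP libraries and 38.4 to 408 over all IN libraries. Lymphocytes are known to carry S1pr1, S1pr4 and S1pr5. The 1 tested gene of their list, Ptprc, fell by 2.17, but it is a gene of all leukocytes, macrophages included. The other 7 markers, of T, B and natural killer cells, summed to 0.208 to 0.437 in IP and 0.737 to 1.82 in IN, and 3 of them were at 0 in all IP libraries. Ptprc was set apart after its values were seen. F2 had the highest IP sum for the satellite glia, Schwann cell, mural, macrophage and skeletal muscle lists, and for the endothelial list without Egfl7 and the lymphocyte list with or without Ptprc. The part of these cells in the receptors' IP levels was not tested, and leaving F2 out changed no call among the 5 tested receptor genes.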

How the data were processed

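Total RNA (IN) and ribosome-bound RNA (IP) of mouse dorsal root ganglia were profiled in 16 libraries. FastQC, STAR 2.2.1, StringTie 1.3.5 and genome build GRCm38.p5 were used, per the submitters' processing notes. No annotation release or strand setting is given in the sources used here. Each deposited value was taken to be a TPM computed by the authors, because values sum to 1000000 in each library, although a closing line in each file calls the column Coverage. TPM keep no read counts, so depth is unknown and no count test was run.

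Repeated gene IDs were added up, and 92 ERCC entries were left out. Gene types came from GENCODE M21. Genes with a mean of at least 1 deposited TPM over the 8 IN or the 8 IP libraries were tested. Deposited TPM of the median gene were higher in IP, so this filter admitted genes more readily through IP. Without the filter 1 of the 8 receptor genes was called higher in IP and 5 lower. Of all genes 59.3% were then called, and 39.7% of those calls were higher. Scaling used each library's median ratio to the genes' geometric means, over tested genes (factors 1.65 to 2.69 for IP and 0.375 to 0.532 for IN). To the scaled TPM 1 was added and log2 taken. limma 3.58.1 in R 4.3.3 was fitted over all tested genes (lmFit, eBayes with an intensity trend, two-sided, Benjamini-Hochberg adjustment, threshold 0.05). IP against IN and the interaction used the pool as a block, and female against male within a fraction used none. Genes under the filter were tested with an exact sign-flip test. The fit was tested on simulated data.

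The series design text pairs IP with IN. The deviations of paired libraries correlated across genes at 0.007 to 0.414. In M1 (0.007) and F1 (0.014) the highest correlation with another pool was larger, at 0.201 and 0.019. In F2 the values were nearly equal (0.116 against 0.115), and in the remaining pools the paired library correlated most. The pairing thus rests on the design text. For IP against IN and the interaction, p-values rest on how the IP minus IN difference varied from pool to pool. For the sexes within a fraction, they rest on the spread of levels between pools. Alternatives were another pseudocount (0.1), no filter, 3 other scalings, the block added or removed, limma's robust option and each pool left out. Marker sums without Egfl7 or Ptprc were added after the data were seen, and those genes were named for that reason.

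The 8 genes and all lists were chosen with earlier results of these data known. Named besides them were, per pathway list, the 2 largest rises and 2 largest falls past the threshold (any gene of a list of up to 4), the other receptors of the classes, genes overlapping a member, the 4 genes best correlated with the members of largest rise and largest fall, and Scn10a. Ptafr, Plppr3, Plppr4 and Sphk1 were named outside this rule, after their values were seen. The list of signalling effectors is not reported here. Python 3.11.15, pandas 2.3.3, numpy 2.4.6 and matplotlib 3.10.9 were used for reading and figures.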

Additional observations from a re-analysis of the deposited data

Results flagged for a closer look

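Lpar1 and S1pr2 had a library far from the others of its group, by Dixon's gap against the range of 4 libraries. Lpar1 was at 9.75 scaled TPM in the IP library of female pool F2, against 3.32 to 4.25 in the other female IP libraries. S1pr2 was at 1.68 in the IN library of F2, against 1.21 to 1.28 in the other female IN libraries. Groups of values examined numbered 32, and chance flags about 1 in 20. The IP library of F2 also had the highest summed satellite glia markers of the IP libraries (285, against 245 at most in the others). Their part in the Lpar1 value was not tested.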

How the results depend on the processing

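In IP against IN, Lpar1 and Lpar3 kept their direction and call under every alternative run, with log2 changes of -2.83 to -0.35 and 1.60 to 3.99. The S1P receptor genes depended on the scaling. With deposited TPM S1pr1 was at 1.23, S1pr2 at 1.24 and S1pr3 at 1.91, each called higher, while the median gene was at 1.84. S1pr2 also turned to 0.38 with quantile normalization and to 0.0395 without the filter. Without the filter 21311 genes passed, and 39.7% of them were higher, against 51% of 12783. With quantile normalization 61.1% and with protein-coding totals 35.1% were higher, and with deposited TPM 94%. For S1pr5 deposited TPM gave -0.0521 (exact permutation p = 0.164, against 0.00781). Removing the pool as a block (no replicate block) changed no member's call in IP against IN or in the interaction. Adding a replicate block of equal pool numbers, which mark different mice in the 2 sexes, gave 8 genes in IN and 5 in IP, against 13 and 8. The interaction gave 3 genes, 0 without the filter, 11 with deposited TPM and 1 with quantile normalization. Leaving out 1 pool gave 10 to 13 genes for sex in IN, 5 to 12 in IP, 0 to 6 for the interaction and 12432 to 12810 for IP against IN. The count for sex in IP was 5 without F2, M1 or M4, and that for the interaction was 0 without F3 or M1, 1 without M3, 5 without F1, F4 or M2 and 6 without F2.

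No member passed in the sex comparisons under any alternative, and signs near 0 turned. For sex in IN, deposited TPM gave Lpar1 0.0845, S1pr2 0.041 and S1pr3 0.0208, and leaving out 1 pool put S1pr2 between -0.0797 and 0.0265. In IP, Lpar3 was at 0.0011 with quantile normalization and 0.0053 with protein-coding totals. Leaving out 1 pool put Lpar3 between -0.11 and 0.0846, Lpar1 between -0.16 and 0.28 and Lpar5 between -0.17 and 0.0902. For the interaction, deposited TPM gave Lpar1 -0.0714 and S1pr2 -0.0402, and leaving out 1 pool put Lpar3 between -0.22 and -0.02, Lpar1 between -0.12 and 0.32, S1pr1 between -0.17 and 0.10 and S1pr3 between -0.14 and 0.0299. Apart from what the scalings' own construction fixes, the cause was not tested. The order of the 8 genes by mean level was the same with deposited TPM in both fractions. Unknown depth limits what can be said of Lpar4, Lpar6 and S1pr5, all under 1 scaled TPM on average.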
